A study of Rattus norvegicus with 24 samples.

Results

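The uroplakins and the transcription factors that govern the urothelium were followed in the injured rat urethra. The 9 genes were chosen by name: Upk1a, Upk1b, Upk2, Upk3a, Upk3b, Trp63, Grhl3, Elf3 and Foxa1, of 32883 genes in the table of normalized gene counts. Of these, 8 were listed under the name itself, and Trp63 was found under Tp63, the current rat symbol. Each name stood on a single row. Female virgin Sprague–Dawley rats, 12 weeks old, underwent simulated vaginal delivery (SVD), in which the pudendal nerve is crushed and the vagina distended. They were then given saline, MABsallo or MABsallo-VEGF into the aorta, and the urethra was collected at 3d or 7d for 3ʹ mRNA sequencing. MABsallo are allogeneic mesoangioblasts, vessel-associated cells grown out of skeletal muscle of another rat, here marked with lentiviral eGFP and luciferase reporters. MABsallo-VEGF additionally carry a lentiviral vector for VEGF165 and a truncated CD34. The 6 groups of treatment and day held 4 samples each, every animal had the injury, and uninjured urethras were not analysed here. In the MABsallo-VEGF 7d group, replicates 6 and 7 are labelled as recovered.

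The urethra is lined by urothelium near the bladder and by stratified squamous epithelium further out. In the outermost urothelial cells, the umbrella cells, uroplakins pack into rigid plaques that cover the apical membrane and form its permeability barrier. The tetraspanins UPK1A and UPK1B pair with the single-pass partners UPK2 and UPK3A or UPK3B in the endoplasmic reticulum, and the heterodimers travel to the surface together. TP63 marks basal cells, GRHL3 and ELF3 act in terminal differentiation and barrier formation, and FOXA1 is a luminal differentiation factor.

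Samples held 2170695 to 10166052 reads on genes, and 1 read was worth 1.67 to 9.23 normalized gene counts. The first principal component of the 500 most variable genes took 70.7% of their variance. Along it, the 7d samples lay between -55.8 and -26.6, and the MABsallo 3d samples between 49.8 and 90.1. Saline 3d replicate 6, at 54.6, stood with the cell-treated 3d samples, and MABsallo-VEGF 3d replicate 4, at 0.70, stood apart from its group. The share of counts from the mitochondrial genome was 23.8% to 35.4% in MABsallo 3d, 15.7% to 39.1% in MABsallo-VEGF 3d, 12.7% to 20.04% in saline 3d and 11.8% to 16.2% at 7d. A further pair, saline 3d replicate 8 and MABsallo-VEGF 3d replicate 2, was low in epithelial genes as a whole. The summed count of 14 general epithelium genes, such as Epcam and Cdh1, was 7679 and 4251 in these samples and 28145 to 78662 in the other 22. The same pair was lowest of the 3d samples in the summed count of 9 smooth muscle genes, with 24180 in saline replicate 8 against 110383 to 191605 in the rest of its group, and 63575 in MABsallo-VEGF replicate 2 against 111624 to 135836. Epithelial RNA was therefore present in all samples, but in unequal amounts, and in bulk RNA fewer epithelial cells and less RNA per cell cannot be told apart. Replicates are numbered in the labels with no further word on what sets them apart, so p-values measure the spread between these samples.

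**Figure D1:**
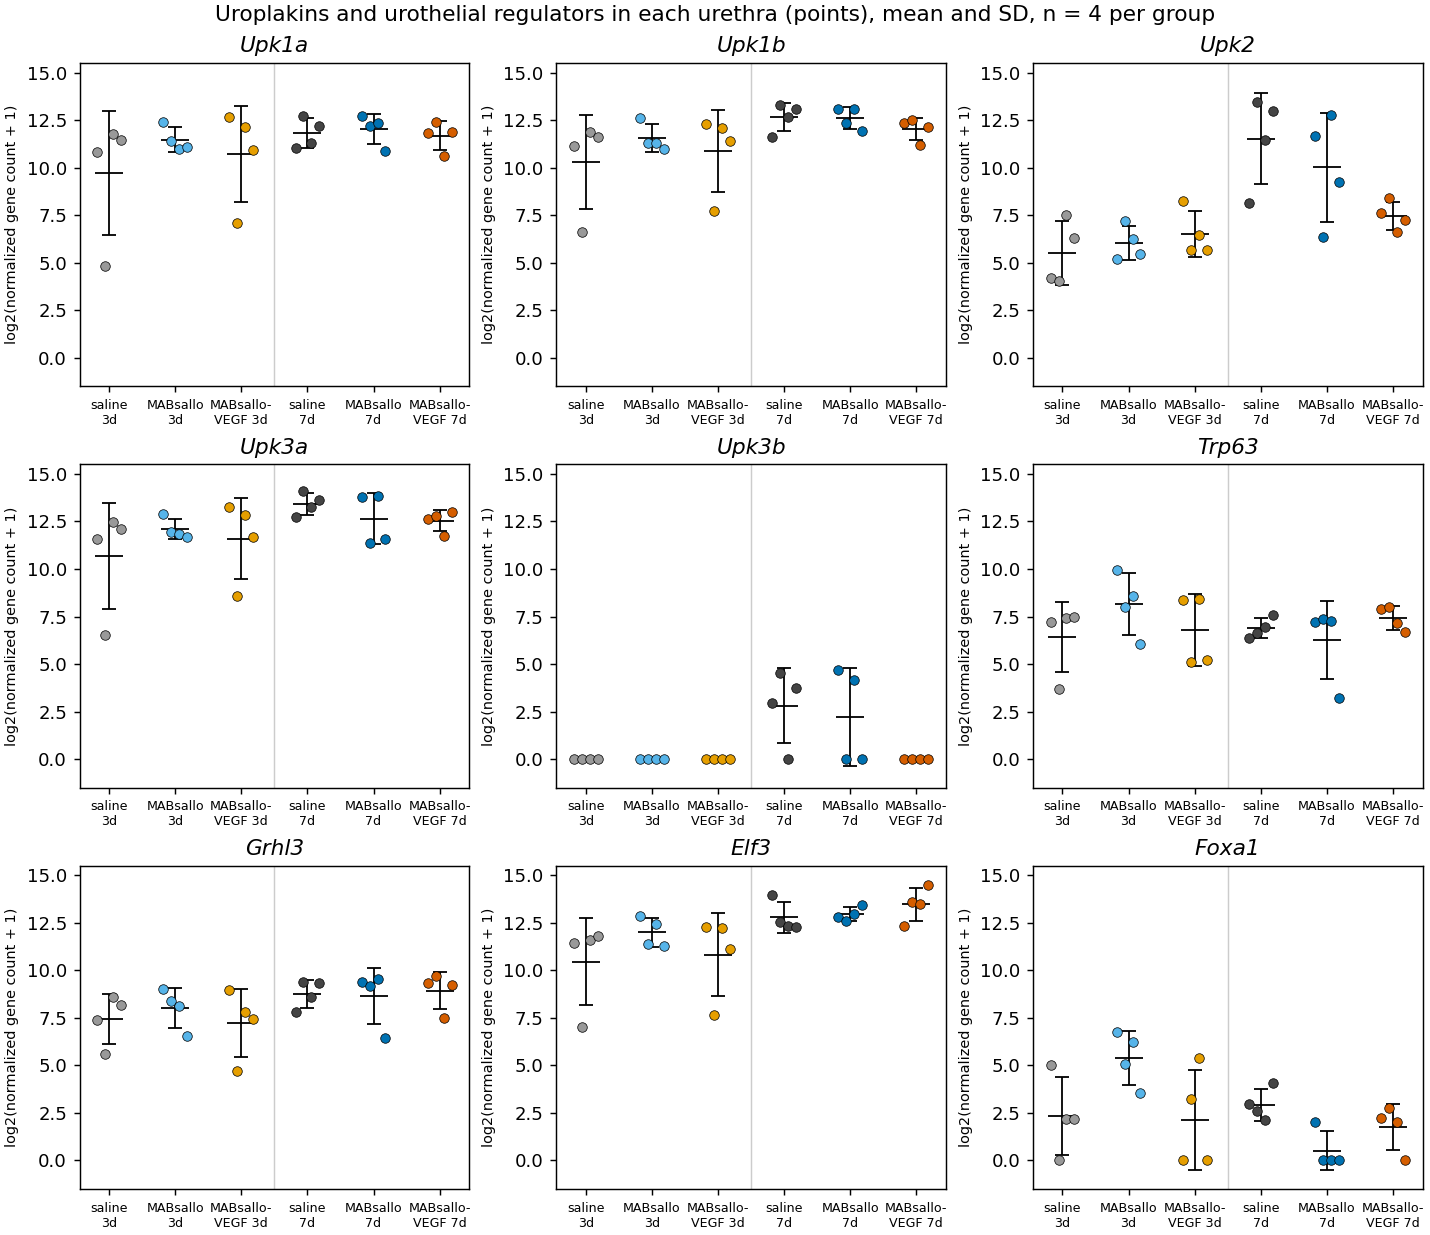
Level of each of the 9 genes on the scale log2(normalized gene count + 1) in the 4 urethras of each group (points), with the group mean (horizontal line) and SD (bars). Upk2 lay at 15.7 to 297 counts in all 3d samples and reached 11371 counts at 7d, and Upk3b had reads in 5 samples, all of them at 7d in saline or MABsallo.

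Upk1a and Upk1b, the tetraspanins, were present in all 24 samples and showed one pattern. For Upk1a, the saline 3d samples had 1780.2, 27.4, 3488 and 2801 normalized gene counts, the MABsallo 3d samples 5396, 2686, 2040.2 and 2175, and the MABsallo-VEGF 3d samples 6575, 133, 4546 and 1937. At 7d, the saline samples had 2131, 6738, 2475 and 4698, the MABsallo samples 6787, 4709, 5199.6 and 1901, and the MABsallo-VEGF samples 3573, 5471, 1573 and 3685. The values of 27.4 and 133 belonged to the pair of samples low in epithelial genes, and without them the ranges of all 6 groups overlapped. For Upk1b, saline 3d had 2228, 98.0, 3813 and 3135, MABsallo 3d 6298, 2489, 2529 and 2007, and MABsallo-VEGF 3d 4958, 208, 4349 and 2747. At 7d, Upk1b was 3081, 10121, 6594 and 8537 in saline, 8812, 5156, 8749 and 3938 in MABsallo, and 5238, 5793, 2355 and 4483 in MABsallo-VEGF. The mean was highest in saline 7d, at 7084 ± 3033 (SD, n = 4), and lowest in saline 3d, at 2319 ± 1617. With the groups ordered by their mean on the log2 scale, no group stood clear of its neighbour, for these or any other of the 9 genes.

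Upk3a, the partner of UPK1B, followed the tetraspanins. Its normalized gene counts in saline 3d were 3099, 90.2, 5600.1 and 4445, in MABsallo 3d 7519, 3983, 3729.6 and 3271, and in MABsallo-VEGF 3d 9781, 375, 7320.3 and 3304. At 7d, saline had 6717, 17357, 9893 and 12594, MABsallo 13926, 2675, 14890 and 3046, and MABsallo-VEGF 6261, 7134, 3454 and 8190. All 4 saline 7d samples lay above all 4 saline 3d samples, whereas the MABsallo 7d samples fell into high and low pairs on either side of the MABsallo 3d values. The share of all genes whose saline samples lay apart between days was not computed. Across the 24 samples, Upk1a, Upk1b and Upk3a rose and fell together: Pearson r of log2(normalized gene count + 1) was 0.97 for Upk1a with Upk1b (Spearman rho 0.85), 0.95 for Upk1a with Upk3a (rho 0.78) and 0.96 for Upk1b with Upk3a (rho 0.84). Each permutation p of r was 1e-05, the smallest that 100000 resamples can give, with an adjusted p of 7.2e-05 over the 36 pairs of the 9 genes. The adjusted permutation p of rho was 9e-05, 0.000144 and 9e-05. Part of this rested on the pair of samples low in epithelial genes, which were also the 2 farthest from the median of Upk1a and of Upk1b. Without them r was 0.82, 0.74 and 0.85. Within 7d, r was 0.85, 0.63 and 0.78, and within 3d 0.991, 0.999 and 0.990.

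Because these genes varied together, the sequences before their starts are shown. RefSeq (rat build GRCr8) promoters were used for 7 of the 9 genes, and those of Upk2 and Foxa1 were not used here. The 250 bases before the start of each gene were searched on both strands for letters that transcription factor families prefer. The GRHL family was searched as ACCGGTT. The letters of the ETS family, to which ELF3 belongs, were AGGAAG. FOXA factors were represented by TGTTTAC. For GATA factors the letters searched were AGATAA. A half-site of nuclear receptors was written AGGTCA. The TATA box was taken as TATAAA. For KLF factors it was GGGCGG. The sequences are given 5′ to 3′ on the strand of the gene, with matches in capitals. Upk1a lies at chr1:94997581-94997830 (minus strand), Upk1b at chr11:75459131-75459380 (plus strand) and Upk3a at chr7:118014540-118014789 (plus strand).
Upk1a: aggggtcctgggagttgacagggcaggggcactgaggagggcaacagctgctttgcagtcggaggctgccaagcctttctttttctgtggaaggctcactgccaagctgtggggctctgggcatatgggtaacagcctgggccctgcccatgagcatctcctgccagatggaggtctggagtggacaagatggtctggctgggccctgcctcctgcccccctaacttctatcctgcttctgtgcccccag
Upk1b: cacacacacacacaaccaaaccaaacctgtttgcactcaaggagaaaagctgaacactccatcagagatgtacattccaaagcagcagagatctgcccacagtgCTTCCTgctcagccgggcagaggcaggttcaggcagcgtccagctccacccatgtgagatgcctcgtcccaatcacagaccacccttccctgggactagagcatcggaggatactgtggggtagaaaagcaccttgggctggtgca
Upk3a: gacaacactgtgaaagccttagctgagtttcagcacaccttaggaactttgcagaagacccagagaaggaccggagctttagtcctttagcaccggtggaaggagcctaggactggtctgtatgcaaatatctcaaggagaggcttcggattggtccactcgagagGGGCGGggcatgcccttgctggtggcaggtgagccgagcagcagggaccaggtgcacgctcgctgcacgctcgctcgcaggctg
Upk1b held 1 ETS match, on the opposite strand 146 to 141 bases before the start, and Upk3a held 1 KLF match, 84 to 79 bases before it. Upk1a held none of the 7 motifs, so no motif was shared by the 3 genes. Among all 33469 promoters of this length, 29.5% held the ETS letters and 30.5% the KLF letters, and the others were held by 0.786% (GRHL), 3.21% (FOXA), 10.3% (GATA), 14.1% (half-site) and 12.9% (TATA). Of the other 4 promoters, Trp63 held 2 ETS matches and Grhl3 held 1 KLF match, while Upk3b and Elf3 held none. A match is a stretch of letters and no measured binding.

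Upk2, the partner of UPK1A in the plaque, had a pattern of its own. At 3d it was low in every sample: 17.2, 15.7, 182 and 77.4 normalized gene counts in saline, 35.5, 148, 73.9 and 43.4 in MABsallo, and 297, 50.01, 85.8 and 49.0 in MABsallo-VEGF. At 7d it was 284, 11371, 2783 and 8166 in saline replicates 1, 2, 3 and 5, and 3299, 79.5, 7050 and 614 in MABsallo replicates 7.2, 9, 11 and 13. In MABsallo-VEGF 7d it was 192, 334, 96.2 and 151. All saline 7d samples lay above all saline 3d samples, and the share of all genes that lay apart in this way was not computed. The MABsallo 7d samples spread from the 3d range up to 7050. The MABsallo-VEGF 7d samples overlapped their 3d counterparts and reached no higher than 334. The means were 73.1 ± 78.2 in saline 3d and 5651 ± 5036 in saline 7d, 75.1 ± 51.1 and 2761 ± 3187 in MABsallo, and 121 ± 119 and 193 ± 102 in MABsallo-VEGF (SD, n = 4).

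Upk3b, a relative of Upk3a that mesothelium also expresses, was close to the limit of detection. It had 2, 9 and 4 reads in saline 7d replicates 1, 2 and 5, which are 6.76, 22.4 and 12.6 normalized gene counts, and 8 and 10 reads in MABsallo 7d replicates 7.2 and 11, which are 24.8 and 16.7. It had 0 reads in the other 19 samples, among them all 12 of 3d. A count of 0 allows up to 3 reads, which are worth 10.3 to 27.7 normalized gene counts in the 3d samples, so that levels like those seen at 7d could not be told from 0 at the depth of many 3d samples. Of 8 mesothelium genes in the table, Lrrn4, Bnc1 and Calb2 had 3 reads or fewer in every sample, and the summed count of the 8 was 2187 to 3487 in saline 7d and 1835 to 3399 in saline 3d. In 4 of the 5 samples with Upk3b reads, Upk2 was at 3299 counts or more, and in the other, saline 7d replicate 1, it was at 284.

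**Figure D2:**
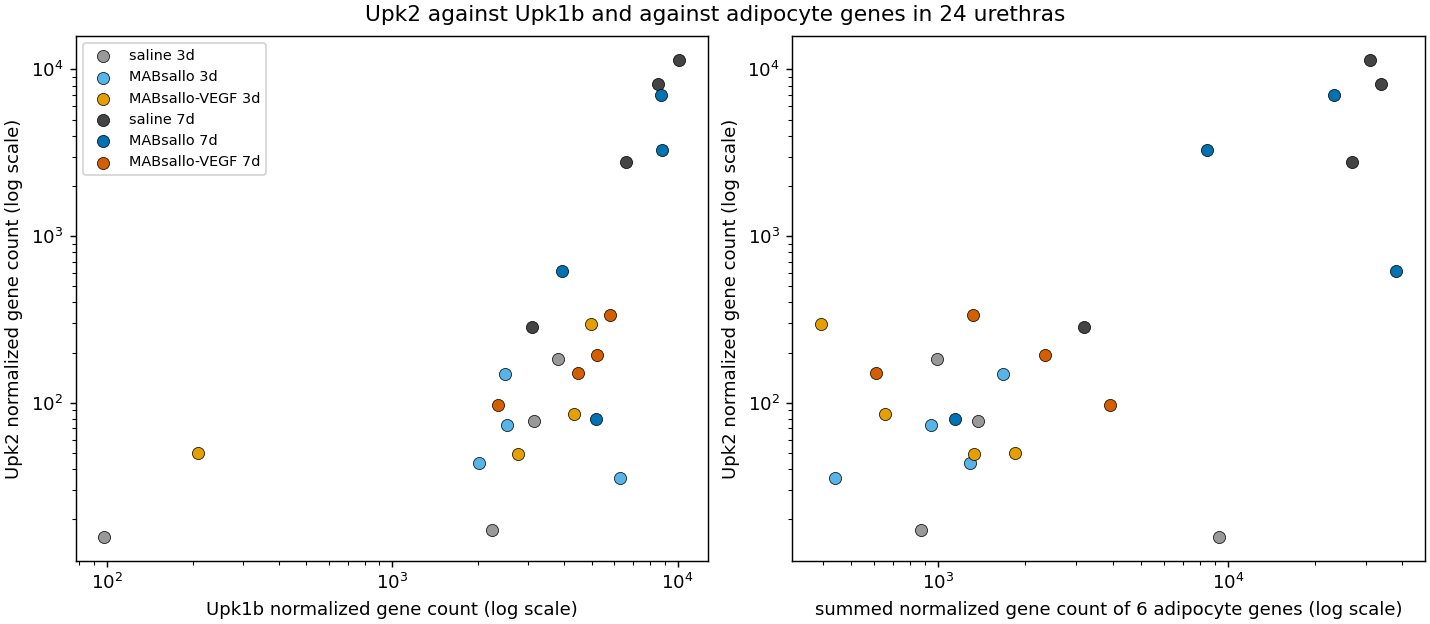
Upk2 against Upk1b (left) and against the summed count of 6 adipocyte genes (right), both on log scales, with 1 point per urethra coloured by group. The 5 samples with the most Upk2, from 2783 counts up, also had the 5 highest Upk1b values, and the MABsallo-VEGF 7d samples had at most 334 counts of Upk2 at Upk1b values up to 5793.

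Trp63, the basal cell factor, was low in count and uneven. In saline 3d it had 148, 11.8, 168 and 176 normalized gene counts, in MABsallo 3d 987, 252, 388 and 65.1, and in MABsallo-VEGF 3d 335, 33.3, 343 and 35.6. At 7d, saline had 81.2, 99.6, 124 and 189, MABsallo 146, 166, 155 and 8.30, and MABsallo-VEGF 236, 257, 143 and 101. The highest values belonged to MABsallo 3d, but one of its 4 samples lay below all saline 7d samples. The lowest, 8.30 in MABsallo 7d replicate 13, rested on 2 reads. Grhl3, which promotes umbrella cell differentiation and barrier repair, had 169, 47.0, 390 and 285 in saline 3d, 525, 328, 277 and 92.2 in MABsallo 3d, and 503, 25.0, 222 and 174 in MABsallo-VEGF 3d. At 7d it had 220, 667, 388 and 635 in saline, 678, 576, 757 and 87.2 in MABsallo, and 638, 830.1, 180 and 599 in MABsallo-VEGF. In each treatment the upper values were found at 7d, and in each the ranges of the days overlapped.

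Elf3, an epithelial ETS factor, was 2768, 129, 3106 and 3551 in saline 3d, 7363, 2664, 5622 and 2523 in MABsallo 3d, and 4985, 200.03, 4833 and 2208 in MABsallo-VEGF 3d. At 7d it was 16087, 6029, 5114 and 4978 in saline, 7047, 6182, 8124 and 11263 in MABsallo, and 5151, 12568, 11346 and 22725 in MABsallo-VEGF. The 7d samples lay above the 3d samples without overlap in saline and in MABsallo-VEGF, the latter by a narrow gap between 4985 and 5151. How many of all genes lay apart between days in this way was not computed, here or for Foxa1 below. Foxa1, by contrast, was scarce and highest in MABsallo 3d, at 107, 32.8, 73.9 and 10.8 normalized gene counts from 15, 6, 8 and 2 reads. In saline 3d it had 31.0, 0, 3.57 and 3.52, and in MABsallo-VEGF 3d 0, 8.33, 40.4 and 0. At 7d, Foxa1 had 6.76, 4.98, 3.35 and 15.7 in saline, 1 read in all in MABsallo, and 3.63, 5.70, 3.10 and 0 in MABsallo-VEGF. Every MABsallo 3d sample lay above every MABsallo 7d sample, while saline 3d replicate 6 lay within the MABsallo 3d range. The lowest MABsallo 3d value, 10.8 from 2 reads, was below the 12.45 counts that 3 reads can be worth in MABsallo 7d. The mitochondrial share was 20.04% or more in the 5 samples with the most Foxa1, but also 28.4% and 34.8% in samples with 0 and 10.8 counts, and its part in the Foxa1 levels was not tested.

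The first question was whether cell treatment shifted these genes at 3d. Groups were compared with limma on log2(normalized gene count + 1) over 16287 genes, and a call needed both an adjusted p under 0.05 and a difference of more than 1 on the log2 scale, up or down. In MABsallo vs saline at 3d, 12.3% of all genes tested were called and 0 of the 9 members. The 1997 genes behind that share fell to 369 without saline 3d replicate 8, 1104 without saline 3d replicate 9, 732 without MABsallo 3d replicate 1, 932 without MABsallo 3d replicate 3 and 5 of 16474 when only these groups were fitted. In limma 1 member and 5122 of the 16287 genes had an unadjusted p below 0.05. DESeq2 and edgeR on the recovered reads called 0 members as well, with 2 and 1 at an unadjusted p below 0.05, beside 4730 and 4962 of all genes. Fitted differences were above 0 for 8 members, Upk3b being at 0 reads in both groups, and their median was 1.42 on the log2 scale against 0.07 over all genes. That median was 0.04 without saline 3d replicate 8, 0.16 with sample weights, 0.52 in DESeq2 and 0.37 in edgeR. The small difference of Upk2, 0.51, turned to -0.03 with quantile normalization, -0.11 with sample weights and -0.07 in edgeR. Foxa1 differed by 3.06 (SE 1.13, adjusted p = 0.0678), Upk1a by 1.76 (SE 1.12, adjusted p = 0.289), Upk3a by 1.42 (SE 0.99, adjusted p = 0.332) and Trp63 by 1.70 (SE 0.99, adjusted p = 0.241), which was 0.78 without saline 3d replicate 8. Leaving out the pair of samples low in epithelial genes, chosen after seeing the data, brought the uroplakins to almost no difference: 0.13 for Upk1a, 0.00 for Upk1b and 0.04 for Upk3a. Foxa1 kept 2.28 in that setting (adjusted p = 0.244), and reached 3.95 (adjusted p = 0.0178) without saline 3d replicate 6 and 3.68 (adjusted p = 0.0386) without MABsallo 3d replicate 4. Without both samples apart on the first principal component Foxa1 was called as well, at 3.95 (adjusted p = 0.0125).

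Other epithelial genes, taken from lists of known function, gave the surroundings of this comparison. Of 15 epithelial and urothelial transcription factors, 3 rose in MABsallo at 3d: Grhl1, a relative of Grhl3, by 4.46 (SE 0.91, adjusted p = 0.00668), Tbx3 by 3.42 (adjusted p = 0.0192) and the ETS factor Ehf by 3.25 (adjusted p = 0.0398). Of 10 layer keratins, Krt14, a keratin of basal cells, rose by 4.15 (adjusted p = 0.0432). None of 18 apical membrane and tight junction genes, 14 general epithelium genes and 14 squamous genes was called, with medians of 0.87, 0.82 and 0.71. Of the lists for other tissues, macrophage C1qb (-2.26), Csf1r (-2.11) and C1qa (-1.74) of 8 genes, connective tissue Lum (-1.69) and Dcn (-1.29) of 5, and mesothelium Gpm6a (-2.21) and Aldh1a2 (-1.95) of 5 were downregulated. Striated muscle Tnnt3 (1.55) and Mylpf (1.42) of 7 and smooth muscle Synpo2 (3.56) of 9 were upregulated, and 0 of 6 adipocyte genes were called. These lists moved beside the members, and their part in the members' levels was not tested.

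In MABsallo-VEGF vs saline at 3d, 0.0307% of all genes and 0 members were called, with 0 members at an unadjusted p below 0.05 in limma, DESeq2 or edgeR. Over all 16287 genes, 2923, 2788 and 2768 were at an unadjusted p below 0.05 in these fits. The 5 genes called became 1112 without saline 3d replicate 6, 1258 without MABsallo-VEGF 3d replicate 4, 2213 of 16281 without both of these samples, which stood apart on the first principal component, 1497 with sample weights and 397 in DESeq2, and 0 or 1 without any other single sample. The number of members called was 0 in each of these settings. Upk1a differed by 0.99 (SE 1.12, adjusted p = 0.690), Upk2 by 0.98 (SE 1.13) and Foxa1 by -0.19 (SE 1.13), the last turning to 0.35 in DESeq2 and 0.23 in edgeR. Leaving out saline 3d replicate 8, low in epithelium, moved Upk1a to -0.63, Upk1b from 0.56 to -0.67 and Upk3a from 0.92 to -0.47. That setting kept MABsallo-VEGF 3d replicate 2, the other sample low in epithelium, so these values do not compare like with like. Without both samples, a setting chosen after seeing the data, the median of the 9 differences was 0.27, against 0.36 in the main fit. In each of these fits 6 members were above 0. In MABsallo-VEGF vs MABsallo at 3d, 0.00614% of all genes and 0 members were called. DESeq2 and edgeR called 0 too, with 0 at an unadjusted p below 0.05, and limma gave 1 member an unadjusted p below 0.05, Foxa1, with a difference of -3.26 (SE 1.13, adjusted p = 0.658). Of all genes, 762, 828 and 999 were below that unadjusted p in DESeq2, edgeR and limma. Trp63 differed by -1.37 (SE 0.99) and Elf3 by -1.18 (SE 0.89). Elf3 was at 200.03 counts in MABsallo-VEGF replicate 2, low in epithelium, and at 2208 to 4985 in the rest of its group. Without both samples low in epithelial genes, chosen after seeing the data, the median of the 9 differences went from -0.76 to 0.06. The members above 0 went from 1 to 5. No gene of the other epithelial or tissue lists was called in either comparison with MABsallo-VEGF at 3d.

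**Figure D3:**
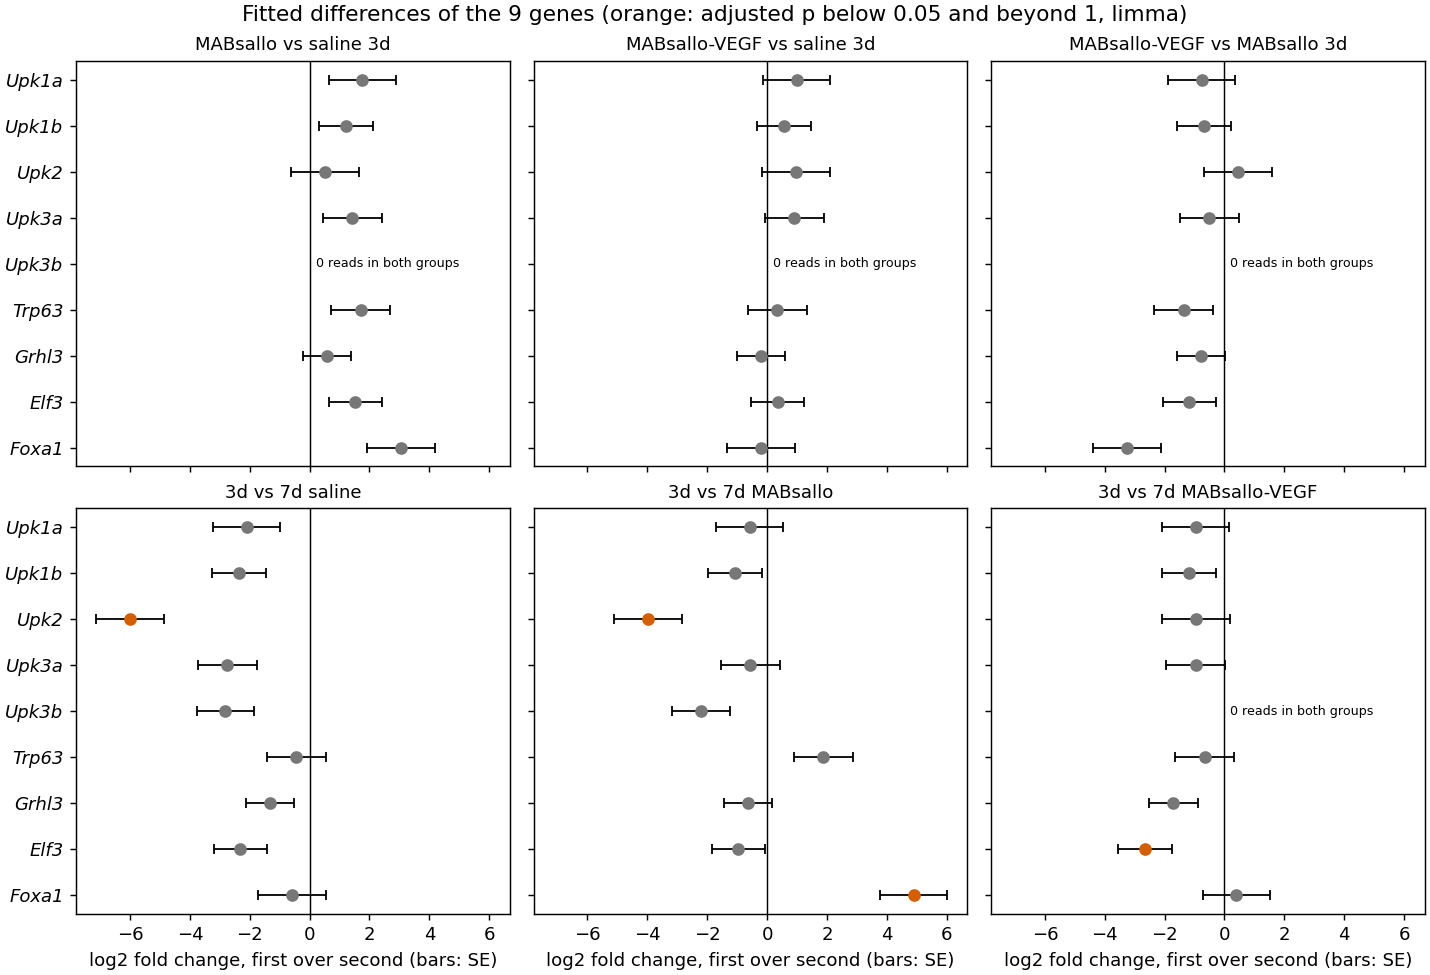
Fitted log2 fold changes (points) with SE (bars) of the 9 genes in the 3 comparisons of treatments at 3d (top) and of 3d with 7d in each treatment (bottom). Orange marks the 4 calls, which are Upk2 in saline at -6.00 and in MABsallo at -3.99, Foxa1 in MABsallo at 4.90 and Elf3 in MABsallo-VEGF at -2.65.

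The second question was how the genes differed between 3d and 7d of the same treatment. In saline, 3.19% of all genes were called and 1 of the 9 members, Upk2, which was lower at 3d by a log2 difference of -6.00 (SE 1.13, adjusted p = 0.0103, limma). The 520 genes called rose to 1281 without saline 3d replicate 8, 1852 with sample weights, 1387 in DESeq2 and 988 in edgeR. All 9 fitted differences were below 0 in limma, with 2 above 0 in DESeq2 and in edgeR, and had a median of -2.32 against 0.05 over all genes. Upk3a differed by -2.75 (SE 0.99, adjusted p = 0.119), Upk1b by -2.34 (SE 0.90, adjusted p = 0.148) and Elf3 by -2.32 (SE 0.89, adjusted p = 0.147), none of which passed. Without the pair of samples low in epithelial genes, chosen after seeing the data, Upk2 was at -5.52 (adjusted p = 0.00443), Upk3a at -1.37 and Upk1b at -1.12. The call of Upk2 was lost without saline 3d replicate 6 (-5.56, adjusted p = 0.0561), without saline 7d replicate 5 (-5.51, adjusted p = 0.0574) and when only these 2 groups were fitted (-6.00, adjusted p = 0.0824). The genes called fell with it, to 22, 39 and 0, and to 31 without both samples apart on the first principal component, where Upk2 was not called either. They numbered 153 to 281 without saline 3d replicates 9 or 10 or saline 7d replicates 2 or 3, with Upk2 still called.

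Other epithelial genes called in saline were Krt7, a luminal keratin, at -3.57 (adjusted p = 0.016), the 1 called of 10 keratins, and Mal, a raft protein of apical transport, at -2.47 (adjusted p = 0.0162), the 1 called of 18 apical membrane and tight junction genes. Fitted differences went the other way, higher at 3d, for 3 of these keratins and 4 of these apical and junction genes. None of 15 transcription factors, 14 general epithelium genes and 14 squamous genes was called. Adipocyte Lep (-5.42) and Fabp4 (-3.04) of 6, smooth muscle Acta2 (-1.94) and Smtn (-1.29) of 9 and mesothelium Wt1 (-4.19) of 5 were lower at 3d, and no striated muscle, macrophage or connective tissue gene was called.

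In MABsallo, 23% of all genes were called, 1 of the 9 members in each direction. Upk2 was lower at 3d by -3.99 (SE 1.13, adjusted p = 0.0101, limma), and Foxa1 was higher by a fitted 4.90 (SE 1.13, adjusted p = 0.00238). Since every MABsallo 7d sample had 3 Foxa1 reads or fewer, the fitted fold depends on the pseudocount. The MABsallo 3d mean of 56.01 was 6.11-fold the 9.17 counts that 3 reads per sample are worth at 7d. This ratio allows for counting error at 7d only. The 3d mean rests on 31 reads, with an SD of 42.6, so the ratio is not a lower bound on the fold. The call of Foxa1 held in all 21 settings tried, with fitted values from 3.09 to 5.97. The call of Upk2 was lost without MABsallo 7d replicate 11 (-3.07, adjusted p = 0.0511) and held in the other settings. Upk1b, at -1.07 (SE 0.90, adjusted p = 0.392), passed without the pair low in epithelial genes (SE 0.39, adjusted p = 0.035), and Trp63, at 1.87 (SE 0.99, adjusted p = 0.156), passed with the mean log2 level of the general epithelium genes as a covariate (2.27, adjusted p = 0.0166). Both settings were chosen after seeing the data. The median of the 9 was -0.64 against 0.06 over all genes.

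Around them in MABsallo, 3 of 15 transcription factors were higher at 3d, Tbx3 (4.24), Grhl1 (3.93) and Tfap2a (1.98). Of 10 keratins, basal Krt14 was higher (4.29) and the luminal keratins Krt7 (-2.87) and Krt18 (-2.10) were lower. Of 18 apical and junction genes, Psca was higher (3.40) and Mal lower (-2.06). Squamous Krt4 (4.08) was higher and Krt10 (-1.30) lower of 14, and 0 of 14 general epithelium genes were called. All 6 adipocyte genes were lower at 3d, with the largest differences for Adipoq (-6.19), Plin1 (-5.46) and Lep (-5.46). Smooth muscle Acta2 (-1.94), Tagln (-1.32) and Des (-1.30) were lower and Synpo2 (4.03) higher. Of the macrophage list, C1qb (-2.61) and C1qa (-1.41) were lower, and Ptprc (1.33), a gene of leukocytes in general, was higher. Mesothelium Aldh1a2 (-2.41) was lower, with no striated muscle or connective tissue gene called.

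In MABsallo-VEGF, 15.3% of all genes were called and 1 of the 9 members, Elf3, lower at 3d by -2.65 (SE 0.89, adjusted p = 0.0376, limma). It was -1.60 (adjusted p = 0.02) without both samples low in epithelial genes, a setting chosen after seeing the data, as was the epithelium covariate. Without both samples apart on the first principal component it was -2.75 (adjusted p = 0.0446). The call was lost with the epithelium covariate (-1.03, adjusted p = 0.16), when only these 2 groups were fitted (adjusted p = 0.0644), without MABsallo-VEGF 3d replicate 2 alone (-1.60, adjusted p = 0.189) and without any of the 7d replicates 7, 11 and 12 (adjusted p = 0.0747, 0.0721 and 0.107). Upk2 differed by -0.96 (SE 1.13, adjusted p = 0.589), Upk1b by -1.17 and Grhl3 by -1.71 (SE 0.81, adjusted p = 0.142), and the median of the 9 was -0.96 against 0.05. Of the other epithelial genes, Tbx3 (3.61), Tfap2a (1.59) and Psca (3.85) were higher at 3d, and Ovol1 (-1.97), Krt17 (-1.83), Cldn4 (-2.35) and Cldn3 (-2.23) were lower. No general epithelium, squamous, striated muscle, connective tissue or adipocyte gene was called. Smooth muscle Synpo2 (3.36) and mesothelium Prg4 (2.35) were higher at 3d, and smooth muscle Acta2 (-1.40) was lower. Ptprc (2.59), a gene of leukocytes in general, was higher and was the 1 called of 8 in the macrophage list.

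Among the treatments at 7d, the question was whether cells altered the levels after the first days. The background was 0% called in MABsallo vs saline, 0% in MABsallo-VEGF vs saline and 0% in MABsallo-VEGF vs MABsallo, and 0 members were called by limma in any of them, with 1, 2 and 2 members at an unadjusted p below 0.05. Among all 16287 genes, 1014, 1033 and 452 were at an unadjusted p below 0.05. In MABsallo-VEGF vs saline, Upk2 differed by -4.06 (SE 1.13, adjusted p = 0.478), and 3 of 4 saline samples lay above all MABsallo-VEGF samples. DESeq2 called it (-4.87, adjusted p = 0.00621), edgeR did not (-4.87, adjusted p = 0.3), and with sample quality weights it was called (-4.30, adjusted p = 0.0387) together with Upk3b. Of all 16287 genes, DESeq2 called 29 in that comparison, edgeR 0 and the fit with weights 147. In MABsallo-VEGF vs MABsallo, Upk2 differed by -2.56 (SE 1.13, adjusted p = 1) and in MABsallo vs saline by -1.5 (SE 1.13, adjusted p = 0.927). Foxa1 differed between MABsallo and saline by -2.42 (SE 1.13, adjusted p = 0.788), from 1 read against 10, so that its size depends on the pseudocount. DESeq2 and edgeR called 0 members in MABsallo vs saline, with 1 each at an unadjusted p below 0.05, and 0 in MABsallo-VEGF vs MABsallo, with 1 and 2. The matching numbers of all genes at that unadjusted p were 1261 and 1222 in the former, and 597 and 637 in the latter. No gene of the other lists was called at 7d, where the median difference of the 6 adipocyte genes was -5.96 in MABsallo-VEGF vs saline.

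Whether the effect of treatment differed between 3d and 7d was tested directly. For MABsallo against saline, 0% of all genes and 0 members passed in limma, with Foxa1 at 5.48 (SE 1.60, adjusted p = 0.191), the 1 member with an unadjusted p below 0.05. For MABsallo-VEGF against saline, 0% and 0 members passed, with Upk2 at 5.04 (SE 1.60, adjusted p = 0.506) and Upk3b as the 2 members under an unadjusted p of 0.05. DESeq2 and edgeR called 0 members in both, each with 1 member under an unadjusted p of 0.05. For MABsallo, 2212 of all genes were under that p in limma, 2076 in DESeq2 and 2107 in edgeR. For MABsallo-VEGF these were 1341, 1389 and 1335. Without both samples apart on the first principal component, 579 genes passed for MABsallo, among them Foxa1, and 585 for MABsallo-VEGF. With sample weights 367 and 376 passed, and in DESeq2 89 and 1, with no member among them. Without saline 3d replicate 6 alone, 128 passed for MABsallo and 0 for MABsallo-VEGF. The Upk2 difference between days was therefore not shown to differ between MABsallo-VEGF and saline. The 2 recovered samples were compared with the other 10 of 7d, and since both had MABsallo-VEGF and 8 of the 10 had not, recovery and treatment cannot be told apart: 0% of 15285 genes and 0 members were called, 0 members had an unadjusted p below 0.05 in limma, and DESeq2 and edgeR called 0, with 1 and 0 at an unadjusted p below 0.05. Of the 15285 genes, 748, 823 and 722 were at an unadjusted p below 0.05 in limma, DESeq2 and edgeR. Within MABsallo-VEGF at 7d, Upk2 was at 192 and 334 counts in the recovered samples and 96.2 and 151 in the other 2, which was not tested.

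**Figure D4:**
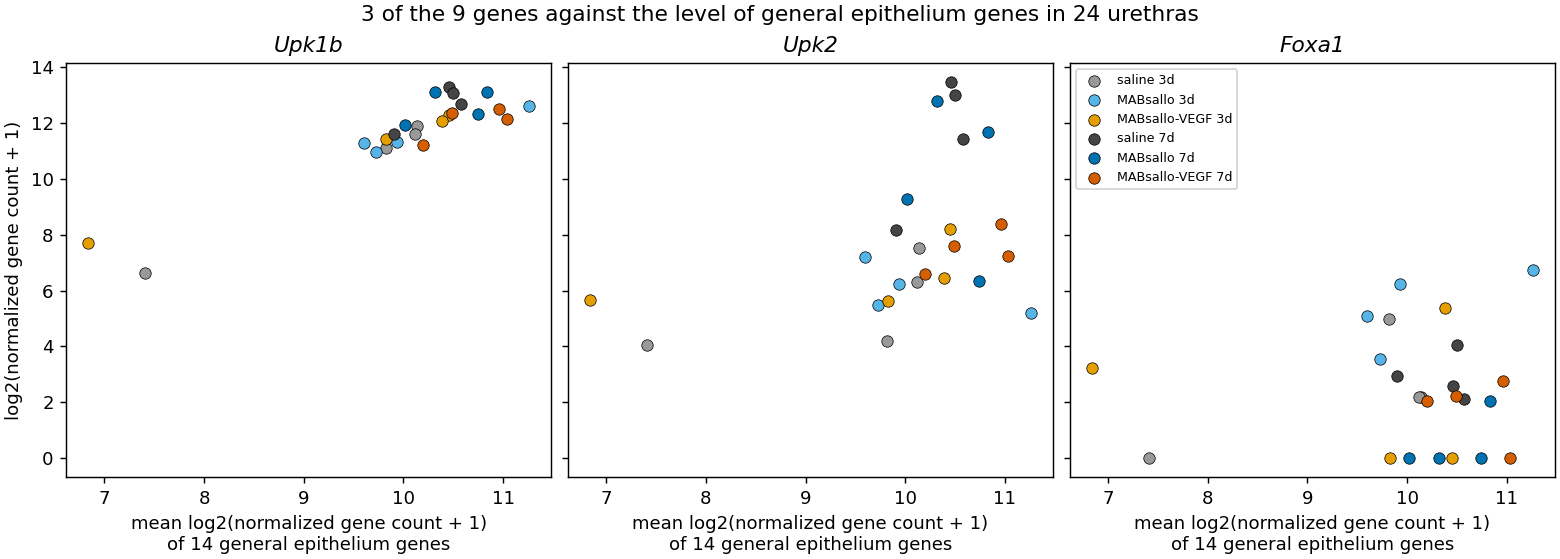
Levels of Upk1b, Upk2 and Foxa1 (vertical axes) against the mean log2 level of 14 general epithelium genes (horizontal axis) in each of 24 urethras, coloured by group. Upk1b followed the epithelium level (r = 0.93), Upk2 spanned 9.41 log2 units with r = 0.39, and Foxa1 showed r = 0.06.

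How far each gene followed the level of epithelial RNA was described by its correlation with the mean log2 level of the 14 general epithelium genes over the 24 samples, which share depth and tissue and of which the pair low in epithelium lies far from the rest. Pearson r was 0.93 for Upk1b, 0.92 for Upk1a, 0.89 for Elf3, 0.87 for Upk3a and 0.86 for Grhl3. It was 0.61 for Trp63, 0.39 for Upk2, 0.19 for Upk3b and 0.06 for Foxa1. Taken relative to this level, the SD of Upk1b over the samples fell from 1.55 to 0.72 on the log2 scale and that of Grhl3 from 1.32 to 0.68, whereas that of Upk2 went from 2.76 to 2.53 and that of Foxa1 from 2.11 to 2.28. Relative to epithelium, Upk2 was -3.86 ± 1.28 in saline 3d and 1.16 ± 2.14 in saline 7d, -4.10 ± 1.53 and -0.46 ± 2.94 in MABsallo, and -2.88 ± 1.44 and -3.21 ± 0.57 in MABsallo-VEGF (SD, n = 4). With the epithelium level as a covariate, Upk2 was called between 3d and 7d in saline (-5.51, adjusted p = 0.00577) and in MABsallo (-3.82, adjusted p = 0.00916). This setting was chosen after seeing the data. The median difference of the 14 genes behind the covariate was itself -0.91 in saline and -0.41 in MABsallo. The part of epithelium in the Upk2 difference was not tested.

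The high Upk2 samples stood out in other genes as well. The adipocyte list, Adipoq, Plin1, Cidec, Fabp4, Lep and Retn, none of which was at 3 reads or fewer in every sample, summed to 3190, 30782, 26833 and 33813 counts in saline 7d replicates 1, 2, 3 and 5 and to 8438, 1139, 23276 and 37944 in MABsallo 7d replicates 7.2, 9, 11 and 13. It was 612 to 3913 in MABsallo-VEGF 7d and 395 to 1842 in the cell-treated 3d samples. In saline 3d it was 875 to 9325, the highest value being replicate 8, which had the lowest Upk2 of all samples. MABsallo 7d replicate 13 had the highest adipocyte sum with 614 counts of Upk2, so the samples did not follow one order. The part of fat tissue in the Upk2 difference was not tested.

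Among 12748 genes with a mean of at least 20 counts, the genes most like Upk2 over the 24 samples were Mal (Pearson r 0.96), Acer2, a ceramidase (0.93), and Ctse, cathepsin E (0.93). Without the pair low in epithelium these were 0.97, 0.93 and 0.93, and for deviations from the group means 0.92, 0.85 and 0.83. Mal was 5399 to 6462 counts in saline 7d replicates 2, 3 and 5 and 1481 in replicate 1, the sample with little Upk2. For Upk1a the closest were AABR07059002.1 (0.96), Clic3 (0.95) and the protease gene Tmprss2 (0.95), for Upk1b the water channel gene Aqp3 (0.96), Clic3 (0.95) and Cdh1 (0.95), and for Upk3a Clic3 (0.96), the connexin gene Gjb6 (0.95) and AABR07059002.1 (0.95). Without the pair low in epithelium these fell, in the same order, to 0.74, 0.83 and 0.71 for Upk1a. They fell to 0.77, 0.81 and 0.84 for Upk1b, and to 0.85, 0.81 and 0.77 for Upk3a. The closest to Upk3b were LOC690000 (0.81), Vsig2 (0.80) and Ttc38 (0.80), with Upk3b at 0 in 19 of the samples. Trp63 was closest to Hr (0.91), Trim14 (0.87) and Htatip2 (0.83), and Grhl3 to the epithelial factor Ovol1 (0.92), the basal keratin gene Krt5 (0.91) and Osbpl2 (0.90). Without the pair these were 0.88, 0.83 and 0.75 for Trp63 and 0.82, 0.81 and 0.84 for Grhl3. Elf3 was closest to the tight junction gene Cldn4 (0.94) and to Fam83h (0.92), and Foxa1 to Hcfc2 (0.84), Stk3 (0.82) and Tbc1d22a (0.82). Without the pair these were 0.78 and 0.72 for Elf3, and 0.85, 0.81 and 0.83 for Foxa1.

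**Figure D5:**
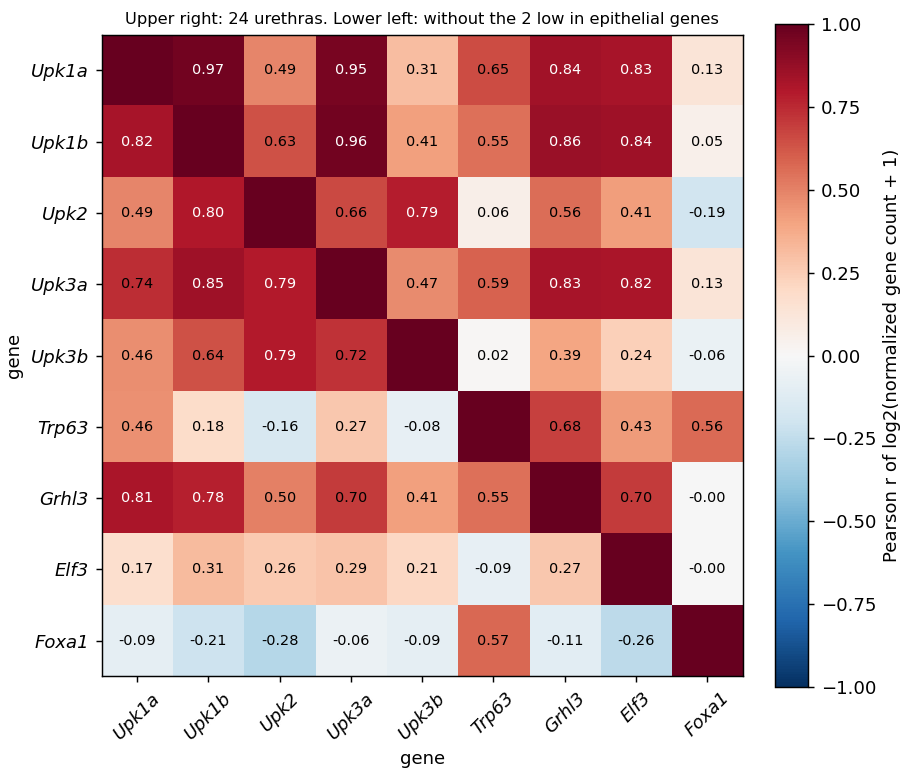
Pearson r of log2(normalized gene count + 1) between each pair of the 9 genes, over 24 urethras (upper right) and without the pair of samples low in epithelial genes (lower left). Elf3 with Upk1a fell from 0.83 to 0.17, whereas Upk2 with Upk1b went from 0.63 to 0.80.

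Of the 36 pairs of the 9 genes, 21 were correlated over the 24 samples at an adjusted p of Pearson r below 0.05 (permutation test with 100000 resamples, Benjamini-Hochberg over the 36). The resamples took no account of the 6 groups, so differences between groups enter these p-values. Pairs of other genes were not counted, so the 21 cannot be read as particular to the 9. Grhl3 varied with the tetraspanins, at r 0.84 with Upk1a (rho 0.88) and 0.86 with Upk1b (rho 0.87), each with a permutation p of 1e-05 and an adjusted p of 7.2e-05 for r and 9e-05 for rho. Without the 2 farthest samples r was 0.81 and 0.78, and within 7d 0.87 and 0.71. Elf3 differed from this: its r of 0.83 with Upk1a (p = 0.00072, adjusted p = 0.00199; rho 0.40, p = 0.0524, adjusted p = 0.082) was 0.17 without those samples and -0.35 within 7d, so the relation rested on the pair low in epithelium. The r of Elf3 with Upk3a went from 0.82 to 0.29 without that pair. Upk2 was correlated with Upk1b (r 0.63, p = 0.00114, adjusted p = 0.00293; rho 0.76, p = 3e-05, adjusted p = 0.000154), and r was 0.80 without the 2 farthest samples, 0.82 within 7d and 0.52 within 3d. Upk2 and Upk3b had an r of 0.79 (p = 7e-05, adjusted p = 0.00036; rho 0.65, p = 0.00033, adjusted p = 0.00132), 0.67 without the 2 samples farthest from the median of Upk2, and no value within 3d, where Upk3b was 0 throughout. Foxa1 was correlated only with Trp63 among the 9 (r 0.56, p = 0.00388, adjusted p = 0.00873; rho 0.48, p = 0.0183, adjusted p = 0.0329), with an r of 0.46 without the 2 samples farthest from the median of Trp63, 0.65 within 3d and 0.41 within 7d. Taken as deviations from the group means, the r of Upk1a with Grhl3 was 0.84, that of Upk1b with Upk2 0.47 (adjusted p = 0.0355) and that of Trp63 with Foxa1 0.50 (adjusted p = 0.0239). The r of Upk1a with Upk2, 0.49 over the 24 samples (adjusted p = 0.0308), was 0.43 for these deviations (adjusted p = 0.0615).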

How the data were processed

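The authors trimmed the reads of 24 urethral 3ʹ mRNA libraries, aligned them to Rnor6.0 with HISAT2, counted reads per gene with HTSeq and normalized the counts with DESeq2, so the deposited signal is a normalized gene count. All values (100%) were whole multiples of 1 read within a tolerance of 1e-06, which gave back the reads (2170695 to 10166052 per sample). That count of reads per sample sets the precision, and limits at 3 reads cover counting error only. The 9 genes and the gene lists were chosen with earlier results of these data known. Groups came from the labels. Genes with a mean of at least 2 were fitted in R 4.3.3 with limma 3.58.1 on log2(normalized gene count + 1), all 24 samples in 1 fit of the 6 group means, with a mean trend and Benjamini-Hochberg adjustment over all genes. edgeR 4.0.16 and DESeq2 1.42.0 on the recovered reads, pseudocount, filter, scaling, sample weights and left-out samples were alternatives. Fits were tested on simulated data with 200 changed genes of MABsallo vs saline at 3d. Besides the 9, the text names the called genes of each list with the largest difference, at most 3 each way, and the 3 genes most like each member, 1 of which is not reported here. Lists covered epithelial transcription factors, keratins, apical and junction genes, general and squamous epithelium, mesothelium, striated and smooth muscle, macrophage, connective tissue and adipocytes. Permutation tests were run in Python 3.11.15. Promoters came from RefSeq (GRCr8), a later build than that of the counts, and no gene positions were taken from it for the counts.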

Additional observations from a re-analysis of the deposited data

Results flagged for a closer look

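Among 50 sets of 4 samples of 1 gene and 1 group, 8 held a sample whose gap to its nearest neighbour exceeded Dixon's critical value. For normal values chance gives about 1 in 20. These sets are unlogged counts, some of a few reads, and the genes vary together, so the 8 cannot be read as an excess. In MABsallo 3d, replicate 1 was highest for Upk1b (6298 normalized gene counts) and Upk3a (7519). In MABsallo-VEGF 3d, replicate 1 was highest for Upk2 (297). Trp63 was lowest in saline 3d replicate 8 (11.8), a sample low in epithelial genes, and in MABsallo 7d replicate 13 (8.30). Elf3 was highest in saline 7d replicate 1 (16087), the saline 7d sample with the least Upk2. Foxa1 was highest in saline 3d replicate 6 (31.0), which stood with the cell-treated samples on the first principal component, and in MABsallo 7d replicate 7.2 (3.10), where it rests on 1 read.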

How the results depend on the processing

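Depth limits Foxa1 and Upk3b, which rest on a few reads, and 4 samples a group limit the rest. Differences were recomputed for all members between treatments at 3d and for the members the text dwells on elsewhere. Among these, 782 log2 differences kept their direction and side of the threshold and 51 changed sign, 11 lost a call and 9 gained one. Upk3b, outside that tally between days and at 7d, gained calls as well. The number of members called in MABsallo vs saline at 3d went from 0 to 1 (Foxa1) with a pseudocount of 5 and without both samples apart on the first principal component, and was 0 to 1 with single samples left out. With that pseudocount 2339 of all genes were called, and without both samples 2951. In MABsallo-VEGF vs saline at 7d the number of members called went from 0 to 2 with sample weights and 1 in DESeq2, where 147 and 29 of all genes were called. Between 3d and 7d in saline it went from 1 to 2 with sample weights, 0 without both samples apart on that component and 0 when only the groups compared were fitted, and was 0 to 2 with single samples left out. All genes called were 520 in the main fit, and 1852, 31 and 0 in the first 3 of these settings. In MABsallo the number of members called was 1 to 3 with single samples left out, beside 3751 of all genes called in the main fit. In MABsallo-VEGF the number of members called went from 1 to 0 when only the groups compared were fitted. All genes called were 2497 in the main fit and 2190 of 16241 in that one. The number of members called was 0 with the epithelium covariate and 0 to 1 with single samples left out. The treatment-by-day count for MABsallo went from 0 to 1 (Foxa1) without both samples apart, where 579 of 16281 genes were called. Leaving out single samples kept the other counts at 0. Of 36 pairs, 9 were correlated in the 7d samples alone against 21 in all samples, and 17 to 23 with single samples left out. edgeR moved the median of all genes in the treatment-by-day difference of MABsallo from 0.08 to -0.11. The cause of these changes was not tested.

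Some differences changed sign, none of them called. In MABsallo vs saline at 3d, Upk2 was -0.0251 with quantile normalization, -0.11 with sample weights and -0.0716 in edgeR. Grhl3 was -0.0971 with weights, -0.0427 without both samples low in epithelium, -0.24 with the covariate and -0.0427 to 1.07 with single samples left out. In MABsallo-VEGF vs saline at 3d, Trp63 was -0.0098 with quantile normalization and -0.0244 without both samples low in epithelium, Grhl3 was 0.0595 in DESeq2 and 0.0165 without both samples low in epithelium, and Foxa1 was 0.0506 with a pseudocount of 5, 0.16 with weights, 0.35 in DESeq2, 0.23 in edgeR and 1.41 without both samples apart. With single samples left out, Upk1a ranged from -0.63 to 2.21, Upk1b from -0.67 to 1.61, Upk3a from -0.47 to 1.93, Trp63 from -0.58 to 0.90, Grhl3 from -0.83 to 0.63, Elf3 from -0.79 to 1.41 and Foxa1 from -1.27 to 0.69. In MABsallo-VEGF vs MABsallo at 3d, Upk1a was 0.29 with weights, 0.10 in DESeq2, 0.14 in edgeR, 0.45 without both samples low in epithelium and 0.53 with the covariate. Upk1b was 0.19, 0.38 and 0.39 with weights, without those samples and with the covariate. Upk3a was 0.39 with weights, 0.17 in DESeq2, 0.21 in edgeR, 0.50 without those samples and 0.57 with the covariate, and Grhl3 was 0.0592 and 0.0304 in the last pair of settings. With single samples left out, Upk1a ranged from -1.42 to 0.45, Upk1b from -1.14 to 0.38, Upk2 from -0.11 to 0.86, Upk3a from -1.07 to 0.50 and Grhl3 from -1.37 to 0.0592. The settings that turn on epithelium were chosen after seeing the data.

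MABsallo 3d and MABsallo-VEGF 3d share replicate numbers 1 to 4, but deviations of same-numbered samples had correlations of 0.337, 0.240, 0.0927 and 0.351, not all above 0.1, so the numbers were not taken as pairs. With the replicate number as a block, 0 of 16606 genes and 0 members were called, as in the fit of only these groups without it. At an unadjusted p below 0.05 in limma there were 1215 genes and 2 members with the block. Without the block there were 524 genes and 1 member.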
